A study of Mus musculus with 6 samples.

Results

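Transcripts of 40 genes that make, store, release and break down glucose in liver, or that carry the insulin and glucagon signals that set those routes, were followed in livers of B6.C3H-6T, a congenic strain, and of C57BL/6J. The genes were taken from a list of 4 branches: 7 genes of glucose production and release, 11 of glycogen, 13 of glycolysis and fructose use, and 9 of hormone control. Each was represented by its brightest probe set among those that the array annotation pairs with that gene alone. Of the 40 genes, 36 had such a probe set and were tested among 18194 genes in all. Gapdh had only control probe sets of its own, which stand outside the test and are described separately. Pfkfb1, Gpi1 and Eno1 had no probe set paired with them alone and were not analysed here.

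RNA was taken from the livers of 3 B6.C3H-6T and 3 C57BL/6J mice, all females of 8 weeks on chow, and the RNA of 1 mouse was placed on each Affymetrix array. B6.C3H-6T carries a stretch of chromosome 6 from the C3H strain on the C57BL/6J background, and the series title gives it as low in serum IGF-1. The limits of that stretch and the feeding state of the mice at dissection are not stated in the labels. No genotype or treatment other than strain was labelled. Values are log2 expression values, so that a difference of 1 is a doubling, and each difference subtracts the C57BL/6J mean from the B6.C3H-6T mean, with its standard error from limma and 3 mice per strain. Levels of different probe sets are not comparable with each other.

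Liver releases glucose made from lactate, glycerol and amino acids (gluconeogenesis) or from glycogen, and after a meal it takes glucose up, stores it as glycogen and sends the rest through glycolysis toward fat. Glucagon, through cyclic AMP and the factor CREB with its partners CRTC2 and PGC-1α, raises transcription of the gluconeogenic enzymes. Insulin, through its receptor and the adaptors IRS1 and IRS2, keeps the FOXO factors out of the nucleus and so lowers that transcription, while sugar itself raises transcription of Pklr and other glycolytic and lipogenic genes through the factor ChREBP.

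The gene starts of 36 of the 40 genes were found in the RefSeq promoter table (GRCm38.p6), and the 250 bases before each start were searched on both strands for 4 motifs. These 36, meant throughout this paragraph, differ from the 36 tested genes. They include Pfkfb1, Gpi1, Gapdh and Eno1 but not the tested Gys2, Ppp1r3b, Crtc2 and Insr. ACGTCA and a shorter form of the same element, TGACG, are parts of the cyclic AMP response element. With both strands searched, every ACGTCA match also holds a TGACG match, so the genes with ACGTCA are among those with TGACG. The forkhead factors are known to bind letters such as GTAAACA. The letters CACGTG are an E-box. Of the 36 genes, 5 had ACGTCA there (6.47% of all 32841 promoters of that length hold it), 9 had TGACG (17.8% of all), 7 had CACGTG (6.02% of all) and 0 had GTAAACA (3.17% of all). A gene with several starts was counted once if any of them held the letters, so the counts of genes and the shares of promoters differ in kind. Sequences are shown for Pck1, the classic cyclic AMP responsive gene of liver, for Slc37a4, Ppargc1a and Ldha, whose array values did not overlap between the strains, and for Khk, in which an E-box overlaps a TGACG match. Matched letters of either strand are in capitals, and each sequence ends at the base before the start.
Pck1, chr2:173152823-173153072, plus strand: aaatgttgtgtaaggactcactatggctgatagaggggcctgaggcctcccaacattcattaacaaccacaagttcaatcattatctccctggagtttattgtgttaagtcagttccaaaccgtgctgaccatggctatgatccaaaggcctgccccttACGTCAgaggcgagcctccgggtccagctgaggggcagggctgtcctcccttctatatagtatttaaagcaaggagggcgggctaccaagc
Slc37a4, chr9:44396696-44396945, plus strand: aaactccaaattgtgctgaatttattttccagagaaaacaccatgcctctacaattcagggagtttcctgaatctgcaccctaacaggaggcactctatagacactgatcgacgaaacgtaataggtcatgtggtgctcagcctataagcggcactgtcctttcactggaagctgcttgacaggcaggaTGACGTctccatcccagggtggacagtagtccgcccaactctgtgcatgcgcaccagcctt
Ppargc1a, chr5:51567726-51567975, minus strand: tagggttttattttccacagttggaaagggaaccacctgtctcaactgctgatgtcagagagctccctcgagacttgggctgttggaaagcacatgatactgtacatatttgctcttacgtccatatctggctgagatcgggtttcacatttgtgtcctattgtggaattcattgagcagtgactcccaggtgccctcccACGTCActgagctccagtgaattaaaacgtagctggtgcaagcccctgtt
Ldha, chr7:46845554-46845803, plus strand: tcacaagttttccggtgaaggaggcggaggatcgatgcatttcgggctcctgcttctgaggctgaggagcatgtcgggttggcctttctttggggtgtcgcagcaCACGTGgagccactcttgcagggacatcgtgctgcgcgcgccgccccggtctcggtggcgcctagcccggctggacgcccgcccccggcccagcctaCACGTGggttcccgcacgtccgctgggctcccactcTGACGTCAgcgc
Khk, chr5:30921309-30921558, plus strand: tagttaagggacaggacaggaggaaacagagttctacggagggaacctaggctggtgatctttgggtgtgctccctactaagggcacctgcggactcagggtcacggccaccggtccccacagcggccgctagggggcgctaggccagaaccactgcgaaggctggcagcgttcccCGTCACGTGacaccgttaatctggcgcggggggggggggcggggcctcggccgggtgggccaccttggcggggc
In Ldha the complete palindrome TGACGTCA began 12 bases before the start, and in Pck1 the match began 91 bases before it. A match is a run of letters and was not tested for binding.

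The liver label was checked against 8 hepatocyte marker genes, whose mean lay between 13.93 and 13.98 in B6.C3H-6T and between 13.86 and 13.96 in C57BL/6J. Of 8 Kupffer cell and myeloid markers, 5 were lower in B6.C3H-6T with no overlap between the strains, against 7.49% of all genes. Of the 8, 6 stood at an unadjusted p under 0.05 (limma, 12.1% of all genes) and 0 passed the test. Their summed linear signal was 6931 to 8331 in B6.C3H-6T, against 8664 to 10033 in C57BL/6J. Without B6.C3H-6T replicate 2 the differences shrank in all 8 but Marco. For Csf1r the difference went from -0.18 to -0.096, and for Clec4f, which lies on chromosome 6, from -0.26 to -0.15. That of Marco went from -0.65 to -0.67. The part of this cell type in the results below was not tested, and in whole liver fewer cells of a type and less RNA per cell cannot be told apart. Markers of 8 further cell types also held 0 genes that passed the test. At an unadjusted p under 0.05 stood 1 of 7 endothelial markers, Fcgr2b, and 1 of 7 lymphocyte markers, Ptprc. Both were lower in B6.C3H-6T without overlap, with differences of -0.27 and -0.47 (-0.15 and -0.35 without B6.C3H-6T replicate 2). Another lymphocyte marker, Cd3e, was higher without overlap. Adipocyte, skeletal muscle, pancreas and erythroid markers each held 1 gene at that p, higher in B6.C3H-6T. Pancreas markers averaged 5.80 to 5.81 in B6.C3H-6T and 5.65 to 5.72 in C57BL/6J. The 3' minus 5' signal of Gapdh, a measure of RNA integrity, was 0.13 to 0.21 in B6.C3H-6T and 0.15 to 0.18 in C57BL/6J. That of beta-actin was 0.53 to 0.70 in B6.C3H-6T and 0.59 to 0.61 in C57BL/6J. B6.C3H-6T replicate 2 stood at 0.21 for Gapdh, the highest of the 6 arrays, and at 0.59 for beta-actin. Many of the members' values were most extreme in B6.C3H-6T replicate 2, so many differences are also given without that mouse. A difference given only with all 6 mice can also have moved without it.

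Of the 36 tested genes, 24 were higher and 12 lower in B6.C3H-6T, and 0 passed the test over all genes (limma, Benjamini-Hochberg adjusted p from 0.230 to 0.963). Over all genes 0.0715% passed. At an unadjusted p under 0.05 stood 14 of the 36 genes, 13 higher and 1 lower, which is 38.9% of them against 12.1% of all genes (6.34% higher and 5.8% lower). With each array centred on its median these became 9 higher and 3 lower, against 11.8% of all genes in that setting. The values of the strains did not overlap in 12 of the 36 genes (33.3%), 10 higher and 2 lower, against 17.8% of all genes (10.3% higher and 7.49% lower). The median difference was 0.13 over the 36 genes and 0.017 over all genes (0.11 and -0.0091 with each array centred on its median). It was 0.22 for glycolysis and fructose, 0.19 for glucose production and release, 0.047 for glycogen and -0.027 for hormone control. Without B6.C3H-6T replicate 2 these medians were 0.14, 0.15, 0.038 and -0.042, so that glycolysis and fructose no longer stood above glucose production and release. The plot of differences orders the genes by branch.

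**Figure D1:**
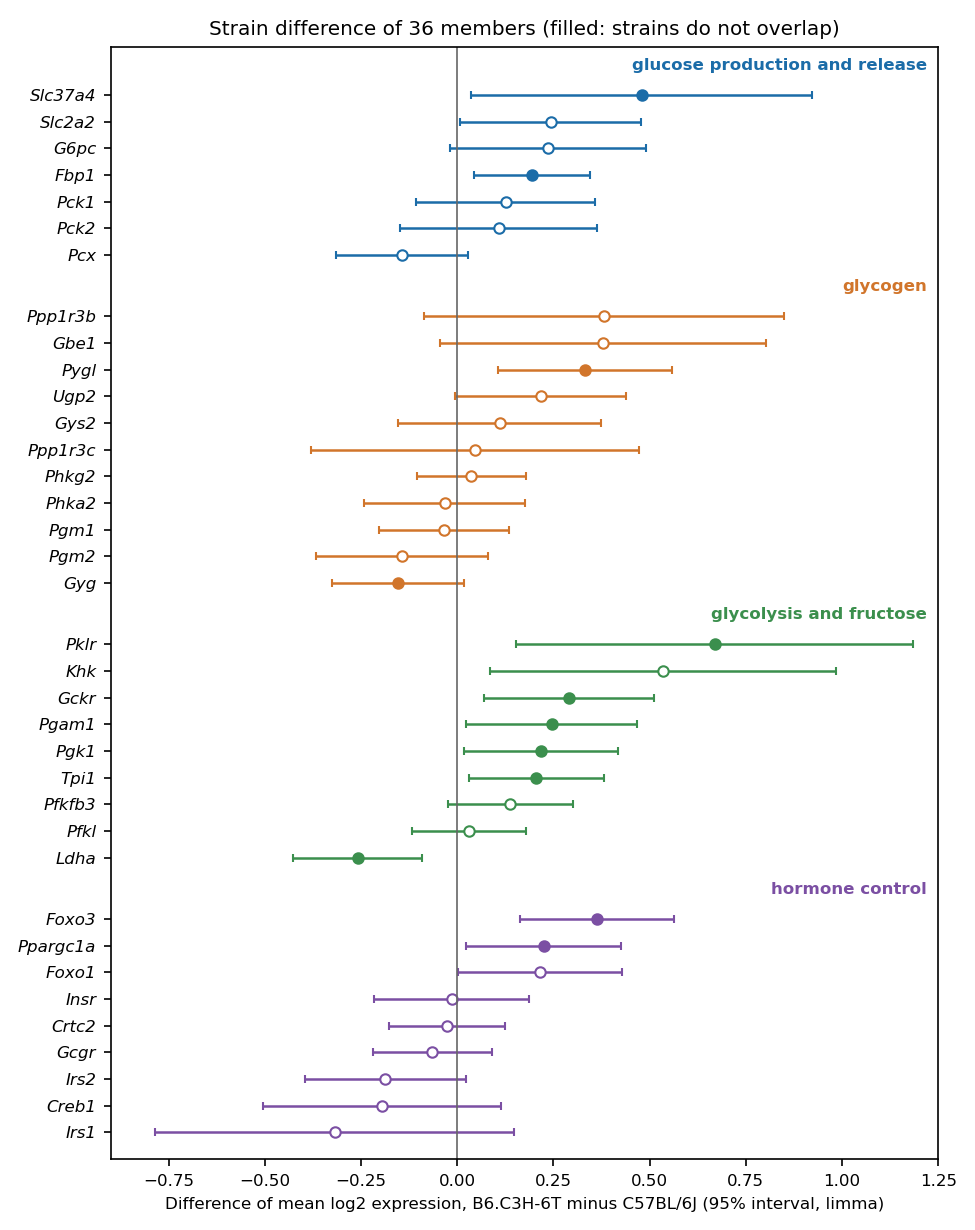
Difference of mean log2 expression (B6.C3H-6T minus C57BL/6J, horizontal axis) for each of the 36 tested genes, with its 95% interval from limma; filled points are genes whose strains do not overlap. Differences run from -0.32 for Irs1 to 0.67 for Pklr, and 8 of 9 genes of glycolysis and fructose lie above 0.

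Over these genes the congenic mice also spread more widely among themselves, which rested on B6.C3H-6T replicate 2. The standard deviation between mice was wider in B6.C3H-6T than in C57BL/6J in 29 of 36 genes (80.6%, against 49.0% of all genes), and in 9 of 9 genes of glycolysis and fructose. Its median over the 36 genes was 0.17 in B6.C3H-6T and 0.093 in C57BL/6J, against 0.085 in B6.C3H-6T and 0.086 in C57BL/6J over all genes. Without B6.C3H-6T replicate 2 the congenic mice were the wider in 16 of 36 genes (44.4%, against 41.9% of all genes) and in 2 of 9 genes of glycolysis and fructose, and the median over the 36 genes was 0.082 in B6.C3H-6T and 0.093 in C57BL/6J. Without replicate 1 or 3 of B6.C3H-6T they were the wider in 24 and 28 of the 36 genes. B6.C3H-6T replicate 2 held the highest of the 6 values in 18 of the 36 genes (19.4% of all genes) and the lowest in 7 (18.1% of all genes). C57BL/6J replicate 3 held the lowest value in 15 of the 36 (23.0% of all genes).

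Relative to the C57BL/6J mean of each gene, the branch of glycolysis and fructose averaged 0.11, 0.44 and 0.14 on B6.C3H-6T replicates 1, 2 and 3. On the C57BL/6J arrays it averaged 0.083, -0.0013 and -0.082, with no overlap between the strains. The glycogen branch averaged 0.028, 0.29 and -0.0070 on the B6.C3H-6T arrays, against 0.083, -0.017 and -0.066 on the C57BL/6J arrays, so that of the congenic mice only replicate 2 lay above every C57BL/6J mouse. Glucose production and release averaged 0.16, 0.27 and 0.097 on the B6.C3H-6T arrays and 0.0051, 0.023 and -0.029 on the C57BL/6J arrays, with no overlap. For hormone control the averages were 0.033, -0.069 and 0.035 on the B6.C3H-6T arrays and 9.63e-05, 0.023 and -0.024 on the C57BL/6J arrays.

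**Figure D2:**
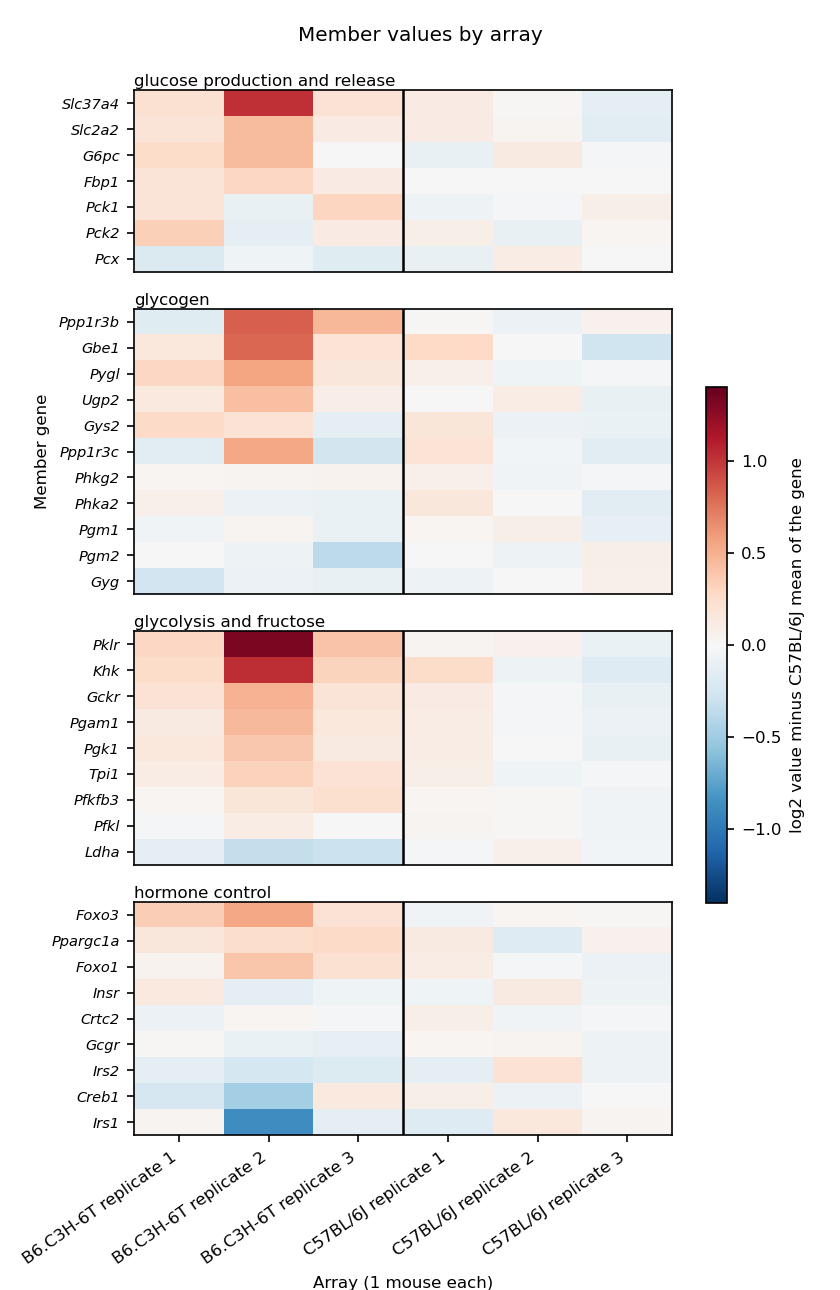
Log2 value of each gene on each array minus the gene's C57BL/6J mean, with B6.C3H-6T arrays left of the black line, C57BL/6J arrays right of it and genes grouped by branch. The column of B6.C3H-6T replicate 2 holds the deepest colours, red for Pklr, Khk and Slc37a4 and blue for Irs1.

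In glucose production and release, 6 of 7 genes were higher in B6.C3H-6T. Of these, 3 stood at an unadjusted p under 0.05 (42.9% of the 7, against 12.1% of all genes). Fbp1, which encodes fructose-1,6-bisphosphatase, the enzyme that turns the phosphofructokinase step back toward glucose, read 13.61, 13.72 and 13.55 in B6.C3H-6T mice, against 13.44, 13.44 and 13.42 in C57BL/6J mice. All 3 congenic mice lay above the C57BL/6J mice, which differed from each other by hardly anything. The difference was 0.19 ± 0.067 (limma adjusted p = 0.333), and 0.15 without B6.C3H-6T replicate 2. Slc37a4, which encodes the transporter that brings glucose-6-phosphate into the endoplasmic reticulum for its last step to glucose, read 11.12, 11.93 and 11.11 in B6.C3H-6T mice, against 11.02, 10.92 and 10.78 in C57BL/6J mice. The strains did not overlap, but the difference of 0.48 ± 0.20 (adjusted p = 0.389) became 0.21 without B6.C3H-6T replicate 2, which lay far above the rest. Slc2a2, the gene of the GLUT2 glucose carrier of the hepatocyte membrane, read 12.14, 12.41 and 12.07 in B6.C3H-6T mice, against 12.08, 12.00 and 11.81 in C57BL/6J mice. Here B6.C3H-6T replicate 3 fell just below C57BL/6J replicate 1, and the difference was 0.24 ± 0.10 (adjusted p = 0.401; 0.14 without B6.C3H-6T replicate 2).

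The textbook hormone-regulated enzyme genes of this branch overlapped between the strains. G6pc, the catalytic subunit of glucose-6-phosphatase, read 12.19, 12.38 and 11.94 in B6.C3H-6T mice, against 11.83, 12.06 and 11.91 in C57BL/6J mice. Only B6.C3H-6T replicates 1 and 2 lay above all C57BL/6J mice, and the difference was 0.24 ± 0.11 (adjusted p = 0.444, 95% interval -0.019 to 0.49), and 0.13 without B6.C3H-6T replicate 2. Pck1, the cytosolic phosphoenolpyruvate carboxykinase whose promoter is shown above, read 12.52, 12.23 and 12.63 in B6.C3H-6T mice, against 12.27, 12.32 and 12.42 in C57BL/6J mice. B6.C3H-6T replicate 2 had the lowest value of all 6 mice and the other congenic mice the highest, so that the difference of 0.13 ± 0.10 (adjusted p = 0.652) was 0.24 without it. Pck2, the mitochondrial form, differed by 0.11 ± 0.11, with B6.C3H-6T replicate 2 again the lowest, and by 0.23 without it. Pcx, the pyruvate carboxylase gene that opens the route from pyruvate, was the 1 lower gene of the branch, at -0.14 ± 0.076, and its 4 control probe sets, outside the test, differed by -0.026 to -0.21, with overlap in each.

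In the glycogen branch, 7 of 11 genes were higher and 4 lower, and 1 stood at an unadjusted p under 0.05 (9.09%, against 12.1% of all genes). That gene was Pygl, the liver glycogen phosphorylase that frees glucose units from glycogen. Pygl read 12.30, 12.56 and 12.17 in B6.C3H-6T mice, against 12.08, 11.95 and 11.99 in C57BL/6J mice. The strains did not overlap, the difference was 0.33 ± 0.10 (1.26-fold, adjusted p = 0.291), and it was 0.22 without B6.C3H-6T replicate 2. Gyg, the gene of glycogenin, which primes new glycogen chains, read 7.26, 7.45 and 7.43 in B6.C3H-6T mice, against 7.46, 7.54 and 7.60 in C57BL/6J mice. Every congenic mouse lay below every C57BL/6J mouse, with B6.C3H-6T replicate 2 and C57BL/6J replicate 1 nearly level. The difference was -0.15 ± 0.075 (adjusted p = 0.455), and the second probe set of Gyg differed by -0.22 ± 0.073, also without overlap.

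Gys2, the liver glycogen synthase gene, which lies on chromosome 6, read 10.26, 10.19 and 9.86 in B6.C3H-6T mice, against 10.17, 9.91 and 9.90 in C57BL/6J mice. The strains overlapped, with B6.C3H-6T replicate 3 the lowest of all, and the difference was 0.11 ± 0.12 (adjusted p = 0.736, 95% interval -0.15 to 0.37; 0.066 without B6.C3H-6T replicate 2). Gbe1, the branching enzyme gene, and Ugp2, which encodes the enzyme that makes UDP-glucose, differed by 0.38 ± 0.19 and 0.22 ± 0.098, and by 0.17 and 0.12 without B6.C3H-6T replicate 2. Ppp1r3b, which encodes the liver subunit that brings protein phosphatase 1 to glycogen, spread over 1 log2 unit among the congenic mice. It read 10.30, 11.31 and 10.94 in B6.C3H-6T mice, against 10.48, 10.39 and 10.53 in C57BL/6J mice, so that 2 congenic mice lay above and 1 below all C57BL/6J mice, and the difference was 0.38 ± 0.21 (adjusted p = 0.497). It was 0.15 without B6.C3H-6T replicate 2 and 0.65 without replicate 1. Its relative Ppp1r3c differed by 0.047 ± 0.19 and was at -0.20 without B6.C3H-6T replicate 2. The phosphoglucomutase genes Pgm1 and Pgm2, named as in the RefSeq table because these names have been exchanged in mouse, differed by -0.034 ± 0.075 and -0.14 ± 0.099, and Pgm1 by -0.069 without B6.C3H-6T replicate 2. The phosphorylase kinase subunit genes Phka2 and Phkg2 differed by -0.032 ± 0.092 and 0.037 ± 0.062, and Phka2 by -0.0063 without that mouse. For Phkg2 the 95% interval, -0.10 to 0.18, was the narrowest of the glycogen branch.

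In glycolysis and fructose use 7 of 9 tested genes stood at an unadjusted p under 0.05 (77.8%, against 12.1% of all genes). In 6 of the 9 the strains did not overlap (66.7%, against 17.8% of all genes). The 7 became 2, Pklr and Ldha, without B6.C3H-6T replicate 2, where 7.27% of all genes stood at the threshold. Glucose production and release then had 3 of 7, Pck1, Pck2 and Slc37a4. Without C57BL/6J replicate 2 or 3 the count for glycolysis and fructose was 3 and 1, against 12.0% and 8.88% of all genes. Without C57BL/6J replicate 3 that 1 gene was lower in B6.C3H-6T and 0 were higher. Gckr, which encodes a regulatory protein of hepatocytes that responds to fructose phosphates, read 11.37, 11.66 and 11.34 in B6.C3H-6T mice, against 11.28, 11.16 and 11.07 in C57BL/6J mice. The lowest congenic mouse lay just above the highest C57BL/6J mouse, and the difference was 0.29 ± 0.098 (adjusted p = 0.330; 0.19 without B6.C3H-6T replicate 2). Pklr, the pyruvate kinase gene of liver, whose enzyme ends glycolysis, read 10.31, 11.34 and 10.43 in B6.C3H-6T mice, against 10.07, 10.08 and 9.93 in C57BL/6J mice. B6.C3H-6T replicate 2 was far above the other congenic mice, which still lay above every C57BL/6J mouse. The difference of 0.67 ± 0.23 (1.59-fold, adjusted p = 0.332) was the highest of the 36 genes, and it was 0.34 without that mouse. Khk, the ketohexokinase gene that starts fructose breakdown, read 11.77, 12.55 and 11.83 in B6.C3H-6T mice, against 11.78, 11.44 and 11.33 in C57BL/6J mice. B6.C3H-6T replicate 1 lay just below C57BL/6J replicate 1, and the difference of 0.53 ± 0.20 (adjusted p = 0.358) was 0.28 without B6.C3H-6T replicate 2.

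Among the genes of the lower, reversible steps, Tpi1, Pgk1 and Pgam1 differed by similar amounts. Tpi1, the triosephosphate isomerase gene on chromosome 6, read 11.61, 11.83 and 11.71 in B6.C3H-6T mice, against 11.60, 11.45 and 11.49 in C57BL/6J mice. The lowest congenic mouse lay barely above the highest C57BL/6J mouse, and the difference was 0.21 ± 0.077 (adjusted p = 0.361). Pgk1, the phosphoglycerate kinase gene on the X chromosome, read 12.52, 12.75 and 12.50 in B6.C3H-6T mice, against 12.48, 12.38 and 12.27 in C57BL/6J mice, again with a narrow gap between the strains. It differed by 0.22 ± 0.089 (adjusted p = 0.388). Pgam1, the phosphoglycerate mutase gene, read 10.81, 11.14 and 10.83 in B6.C3H-6T mice, against 10.78, 10.65 and 10.60 in C57BL/6J mice, and the lowest congenic mouse lay just above the highest C57BL/6J mouse. Its difference was 0.25 ± 0.099 (adjusted p = 0.383). Without B6.C3H-6T replicate 2 the differences of Tpi1, Pgk1 and Pgam1 were 0.15, 0.14 and 0.14.

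Gapdh, whose enzyme stands between Tpi1 and Pgk1 in the pathway and whose gene lies on chromosome 6, was read by 3 control probe sets for the 3', middle and 5' parts of its transcript. The 3' probe set read 13.31, 13.62 and 13.29 in B6.C3H-6T mice, against 13.21, 13.16 and 13.08 in C57BL/6J mice. The strains did not overlap at any of the 3 probe sets, and the differences were 0.25, 0.25 and 0.25, with no test. B6.C3H-6T replicate 2 was the highest mouse at each, and without it the differences were 0.15 at the 3', 0.14 at the middle and 0.16 at the 5' probe set. The 3 probe sets read the same RNA on each array and are not independent.

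Ldha was the exception among these genes. It encodes the lactate dehydrogenase subunit that joins pyruvate and lactate, and it read 12.41, 12.22 and 12.26 in B6.C3H-6T mice, against 12.53, 12.62 and 12.51 in C57BL/6J mice. Every congenic mouse lay below every C57BL/6J mouse, with B6.C3H-6T replicate 1 nearest to them. The difference was -0.26 ± 0.074 (adjusted p = 0.280; -0.22 without B6.C3H-6T replicate 2). The genes of the phosphofructokinase step overlapped between the strains. Pfkl, the liver phosphofructokinase gene, differed by 0.031 ± 0.066 (-0.0066 without B6.C3H-6T replicate 2), and Pfkfb3, an enzyme gene for its activator fructose-2,6-bisphosphate, by 0.14 ± 0.072.

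**Figure D3:**
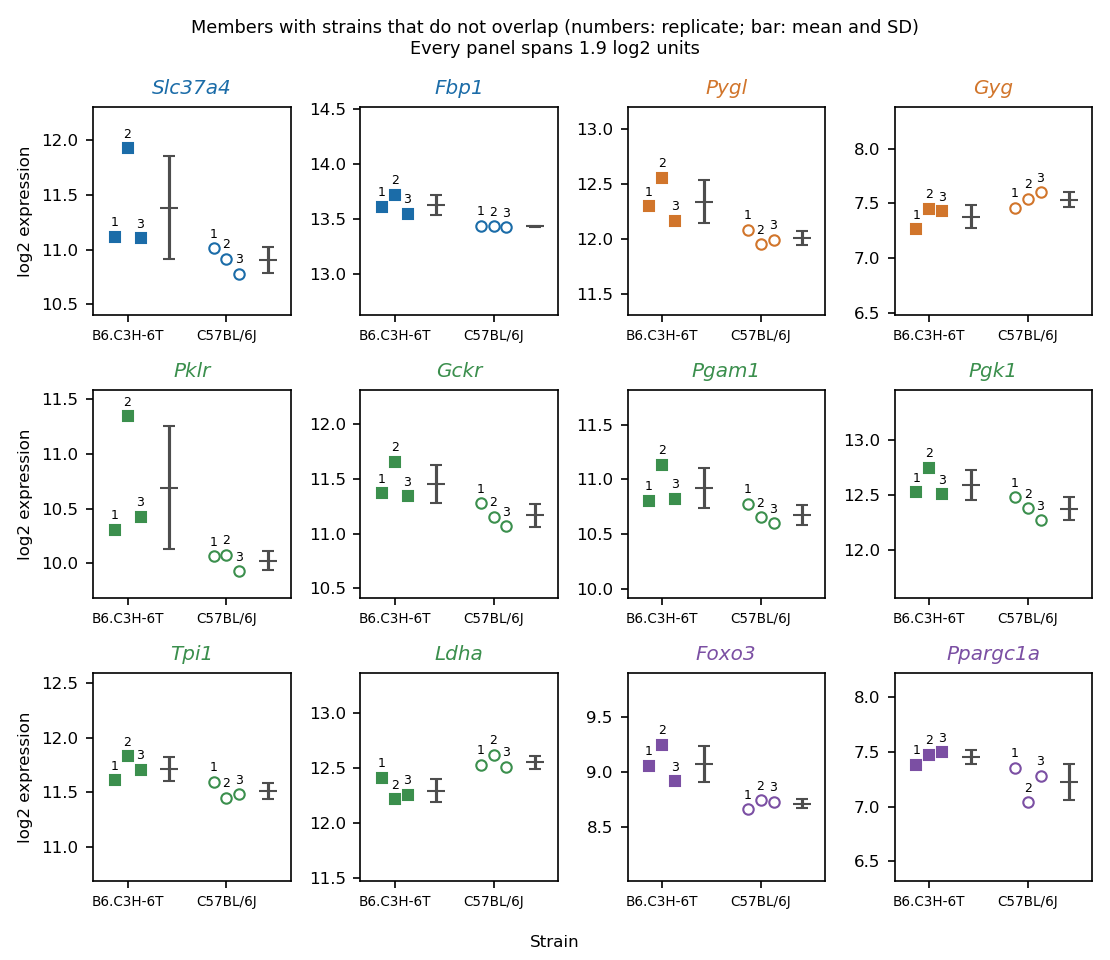
Log2 expression of the 12 genes whose strains do not overlap, with filled squares for B6.C3H-6T mice, open circles for C57BL/6J mice, replicate numbers beside them and bars for the mean and SD of each strain. B6.C3H-6T replicate 2 is the highest mouse in 9 of the panels, while Gyg and Ldha lie lower in B6.C3H-6T.

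In hormone control, 3 of 9 genes were higher and 6 lower. The 3 higher ones, Foxo3, Foxo1 and Ppargc1a, were those at an unadjusted p under 0.05 (33.3% of the 9, against 12.1% of all genes). Without B6.C3H-6T replicate 2, or without C57BL/6J replicate 2, 1 gene of the branch stood there, against 7.27% and 12.0% of all genes. Foxo3, a FOXO factor gene, read 9.06, 9.25 and 8.92 in B6.C3H-6T mice, against 8.66, 8.74 and 8.73 in C57BL/6J mice. The strains were clearly apart, and the difference of 0.36 ± 0.088 (1.29-fold, adjusted p = 0.230) had the smallest p of the 36 genes. Without B6.C3H-6T replicate 2 Foxo3 differed by 0.28. Its relative Foxo1, the FOXO factor best known for raising G6pc in liver, read 8.72, 9.06 and 8.88 in B6.C3H-6T mice, against 8.77, 8.66 and 8.59 in C57BL/6J mice. B6.C3H-6T replicate 1 lay below C57BL/6J replicate 1, and the difference was 0.21 ± 0.095 (adjusted p = 0.411; 0.13 without B6.C3H-6T replicate 2). Ppargc1a, the gene of the coactivator PGC-1α, read 7.38, 7.47 and 7.50 in B6.C3H-6T mice, against 7.36, 7.04 and 7.28 in C57BL/6J mice. Here the spread lay in the C57BL/6J mice, of which replicate 2 was low. The difference of 0.23 ± 0.089 (adjusted p = 0.378) fell to 0.13 when that low mouse was left out. Leaving out B6.C3H-6T replicate 2 instead gave 0.21.

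On the receptor side, Insr, the insulin receptor gene, read 10.28, 10.02 and 10.09 in B6.C3H-6T mice, against 10.09, 10.27 and 10.07 in C57BL/6J mice. The strains overlapped fully, and the difference of -0.015 ± 0.089 (adjusted p = 0.963) had a 95% interval of -0.22 to 0.19 and was 0.040 without B6.C3H-6T replicate 2. Irs2, an adaptor gene that insulin itself represses in liver, read 7.22, 7.10 and 7.15 in B6.C3H-6T mice, against 7.22, 7.55 and 7.27 in C57BL/6J mice. B6.C3H-6T replicate 1 lay level with C57BL/6J replicate 1 and the other congenic mice below all C57BL/6J mice, with a difference of -0.19 ± 0.092 (adjusted p = 0.456). Irs1, the other main adaptor, differed by -0.32 ± 0.21, and by -0.042 without B6.C3H-6T replicate 2, the lowest mouse by far. On the glucagon side, Gcgr, the glucagon receptor gene, differed by -0.065 ± 0.068, the coactivator gene Crtc2 by -0.027 ± 0.067 and Creb1 by -0.19 ± 0.14. Crtc2 was at -0.052 and Creb1 at -0.052 without B6.C3H-6T replicate 2.

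Of the 36 genes, 18 had more than 1 probe set, with 38 further probe sets in all, and 32 of these differed in the same direction as the one used. At an unadjusted p under 0.05 stood 11 of the 38, and all 11 had the direction of the probe set used. The other probe sets of Pklr differed by 0.60 ± 0.23 and 0.64 ± 0.25, those of Tpi1 by 0.20 ± 0.083 and 0.24 ± 0.087, and those of Pgk1 by 0.18 ± 0.091 and 0.21 ± 0.095. For Foxo3 they differed by 0.46 ± 0.12 and 0.15 ± 0.093, and all 4 of Ppargc1a were higher, by 0.13 to 0.28. All 4 others of Ugp2 were higher as well, by 0.23 to 0.31, and 3 of them stood at an unadjusted p under 0.05 although the brightest did not. The second probe set of Pck2 differed by -0.12 ± 0.073, against the direction of the one used. Probe sets of a gene share its RNA on each array and are not independent.

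**Figure D4:**
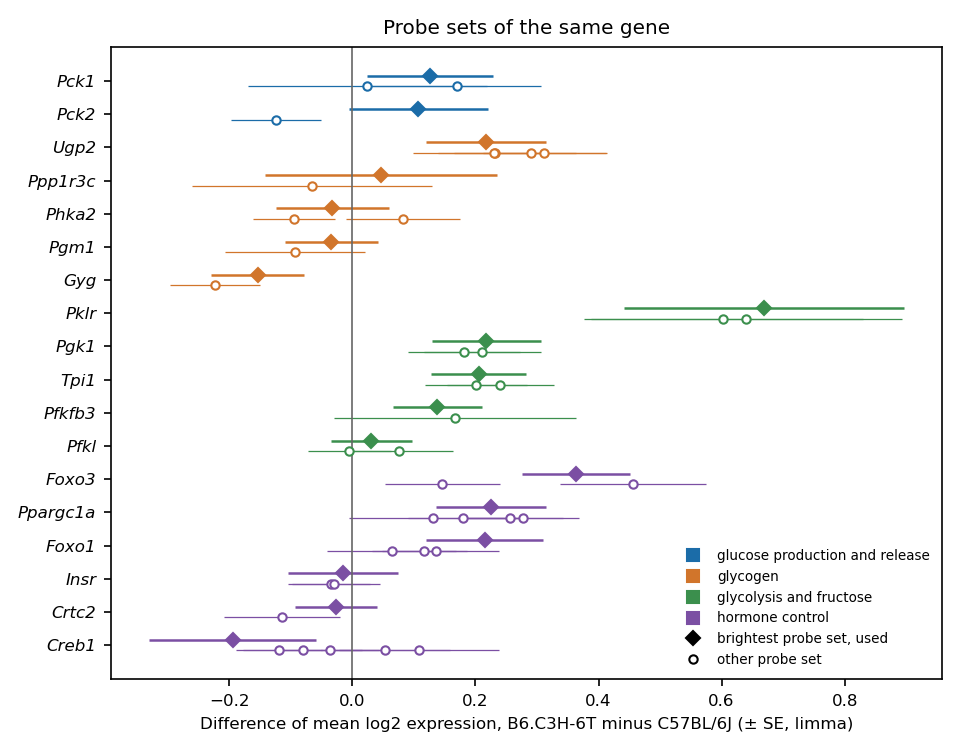
Difference of mean log2 expression (B6.C3H-6T minus C57BL/6J, ± SE from limma) for every probe set of the 18 genes that had several, with diamonds for the brightest probe set and open circles for the others. Those of Pklr, Tpi1, Pgk1, Ugp2, Ppargc1a, Foxo1 and Foxo3 all lie above 0, while those of Creb1 lie on both sides.

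Further genes of the same routes were taken from a list of 119, of which 108 had a probe set of their own. None of the 108 passed over all genes (limma adjusted p from 0.162 to 0.995), while 24 stood at an unadjusted p under 0.05 (22.2%, against 12.1% of all genes), 11 higher and 13 lower. Their median difference was 0.014. Among the genes that feed gluconeogenesis, 8 of 17 stood at that unadjusted threshold, 5 higher and 3 lower. The strains did not overlap in Got1, Gpt2, Gpt or Tat, transaminase genes whose enzymes act on amino acids. These genes differed by 0.74 ± 0.18, 0.46 ± 0.12, 0.36 ± 0.10 and 0.42 ± 0.094, and by 0.54, 0.32, 0.26 and 0.33 without B6.C3H-6T replicate 2. A further transaminase gene, Got2, named after its values were seen, differed by 0.048 ± 0.073, with overlap. Slc16a1, which encodes the lactate and pyruvate carrier MCT1, was like Ldha lower in every congenic mouse than in every C57BL/6J mouse, with a difference of -0.46 ± 0.087 (adjusted p = 0.177).

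Among the further genes of glycolysis and fructose, 3 of 27 stood at the unadjusted threshold (11.1%, against 12.1% of all genes). Slc2a5, the gene of the fructose carrier GLUT5, read 7.13, 7.34 and 7.13 in B6.C3H-6T mice, against 6.70, 6.78 and 6.89 in C57BL/6J mice. The strains did not overlap, and the difference was 0.41 ± 0.083 (adjusted p = 0.189). Tkfc, which encodes the triokinase that follows Khk in fructose breakdown, differed by 0.43 ± 0.22, and without B6.C3H-6T replicate 2 by 0.14. Bpgm, the bisphosphoglycerate mutase gene on chromosome 6, and the aldolase gene Aldoa were lower without overlap, with differences of -0.26 ± 0.067 and -0.19 ± 0.070. Pfkp, a phosphofructokinase gene better known from other tissues, differed by 0.13 ± 0.062.

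Among the further glycogen genes, 1 of 19 stood at the unadjusted threshold (5.26%, against 12.1% of all genes). That gene was Stbd1, which encodes a glycogen-binding protein, with a difference of -0.29 ± 0.10. The difference of Stbd1 was -0.17 without B6.C3H-6T replicate 2, and Stbd1 no longer stood at the threshold without that mouse or without C57BL/6J replicate 1. The next smallest p belonged to Ppp1r3a, which lies on chromosome 6 (-0.17 ± 0.076), and Ppp1r3e (-0.14 ± 0.068). After these came the lysosomal glucosidase gene Gaa (-0.11 ± 0.066, and -0.059 without B6.C3H-6T replicate 2) and the brain phosphorylase gene Pygb (-0.12 ± 0.072). In hormone control, 12 of 45 stood at the unadjusted threshold (26.7%, against 12.1% of all genes), 5 higher and 7 lower. Foxa2, a forkhead factor gene of liver, read 9.63, 9.40 and 9.32 in B6.C3H-6T mice, against 8.93, 9.03 and 8.96 in C57BL/6J mice, with the strains well apart and a difference of 0.47 ± 0.087 (adjusted p = 0.162). Adcy6, an adenylyl cyclase gene that acts downstream of the glucagon receptor, was lower in every congenic mouse than in every C57BL/6J mouse. The difference was -0.61 ± 0.12 (limma adjusted p = 0.182), and -0.46 without B6.C3H-6T replicate 2. The adrenergic receptor gene Adra1b and the phosphodiesterase gene Pde3b, whose enzyme breaks down cyclic AMP, differed by 0.36 ± 0.10 and 0.21 ± 0.066, and Rictor, a subunit gene of the mTORC2 kinase, by -0.23 ± 0.074.

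The counts depended on single arrays. Without B6.C3H-6T replicate 2, 7 of the 36 genes stood at an unadjusted p under 0.05 (7.27% of all genes in the same fit), and without C57BL/6J replicate 2 or 3 there were 8 and 5 (12.0% and 8.88% of all genes). Without B6.C3H-6T replicate 1 or 3 there were 17 and 15 (10.8% and 13.2% of all genes), and without C57BL/6J replicate 1 there were 17 (10.2% of all genes). Foxo3, Pygl and Ldha stood at that threshold without each array in turn. The smallest adjusted p of any of the 36 genes without 1 array was 0.147, for Ppp1r3b without B6.C3H-6T replicate 1.

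**Figure D5:**
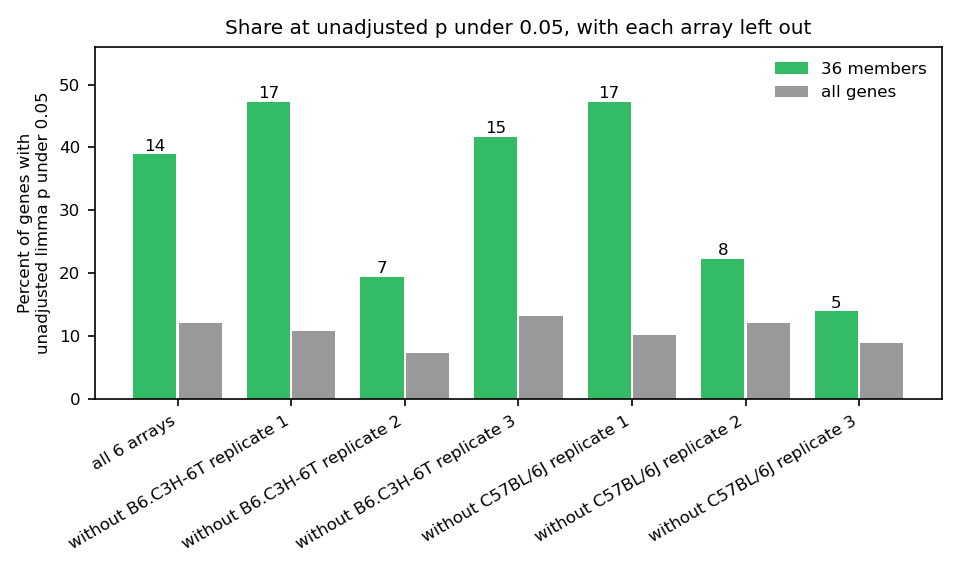
Percent of the 36 genes (green, with the count above each bar) and of all 18194 genes (grey) at an unadjusted limma p under 0.05, with all 6 arrays and with each array left out. The green bars range from 5 genes without C57BL/6J replicate 3 to 17 genes without B6.C3H-6T replicate 1 or C57BL/6J replicate 1.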

How the data were processed

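Each array has 1 deposited log2 value for every probe set, which the authors obtained by RMA with affy (per the submitters' processing notes) after quantifying images with GeneChip Operating Software 1.2, per the labels. Their versions, array batches and detection calls are not stated in the labels or notes. Of 45101 probe sets, 64 control probe sets were left out. The remaining 45037 were fitted without covariate or filter by lmFit and eBayes of limma 3.58.1 (R 4.3.3), and p-values of the brightest probe set of each of 18194 genes were adjusted by the Benjamini-Hochberg method, with 0.05 as the threshold. Names come from the platform annotation, updated through gene identifiers to RefSeq (GRCm38.p6), and promoters from RefSeq.

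Each array is 1 mouse, and replicate numbers follow accession order and pair nothing. The number of arrays limits the precision: an exact permutation test of 3 against 3 cannot give a p below 0.1. The members and lists were chosen with earlier results of these data known. Values in every mouse are given for genes with strains that do not overlap or an unadjusted p under 0.05 and for 11 fixed genes; of other pathway genes, up to 5 per branch of smallest p are named. Alternatives left out each array, centred the arrays, dropped dim genes, chose probe sets otherwise or changed the variance model. The fit was tested on simulated data.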

Additional observations from a re-analysis of the deposited data

How the results depend on the processing

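No member passed over all genes under any of the 14 alternatives. The 14 members at an unadjusted p under 0.05 became 3 with variances not moderated, a setting in which 9.60% of all genes stood there, and 5 to 17 without 1 array. The 12 members with strains not overlapping became 13 to 21 without 1 array, where fewer values are compared and 24.5% to 32.0% of all genes did not overlap. The median difference of the members was 0.13 to 0.20 without 1 array, that of glycolysis and fructose 0.14 to 0.27, that of glucose production and release 0.15 to 0.23, that of glycogen 0.025 to 0.20 and that of hormone control -0.092 to -0.029. Of 465 differences of single members under the alternatives, 449 kept their sign and 16, of 7 members, did not. Many of the 465 could not change, so the count is no measure of stability. These were differences with only the variance model changed or dim genes dropped. Those of genes with 1 probe set also could not change when probe sets were chosen otherwise. Without 1 array Pck2 ranged from -0.0071 to 0.23, Crtc2 from -0.052 to 0.013, Ppp1r3c from -0.20 to 0.20, Pfkl from -0.0066 to 0.055, Insr from -0.092 to 0.049, Phka2 from -0.11 to 0.049 and Pgm1 from -0.093 to 0.0090. With the mean of all probe sets Pck2 was at -0.0085 and Ppp1r3c at -0.0096, and with the probe set of median p Pck2 was at -0.12, Ppp1r3c at -0.066 and Phka2 at 0.083. The cause was not tested. No paired analysis was possible because the labels give no number that mice of both strains share. With 3 mice per strain and no detection calls used, signal over background was not assessed. Counts by branch, the spread between mice and the Gapdh control probe sets without 1 array were added after seeing the data.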
